A study of Mus musculus with 36 samples.

Results

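The SSB landscape of liver comprised 2 of the 12 libraries in which single-strand DNA breaks (SSBs) were mapped. They were chosen by their tissue label and were set against the 10 SSB libraries of the other 5 tissues, which were bone marrow, brain, heart, peripheral blood mononuclear cells (PBMCs) and sperm. All came from 24-month-old male C57BL/6J mice, an inbred laboratory strain, with 2 animals used for all tissues and with no treatment or genetic change named in the labels. Liver was ground as a whole organ, so each library mixed the DNA of hepatocytes with that of every other liver cell, and a change in the cells present cannot be told apart from a change within a cell type. DNA of sperm was purified with another kit than DNA of the other tissues, so for sperm the kit and the tissue cannot be told apart. The labels did not state whether a replicate number marked the same animal in each tissue. In the main edgeR tests, p-values measure the spread between the 2 libraries within a tissue, not the spread between tissues. The exact permutation tests use the spread over all 12 libraries.

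An SSB is an interruption of 1 strand of the double helix. SSBs arise from oxidative attack on the sugar backbone, as intermediates of base excision repair and through the action of topoisomerases, and most are quickly sealed by ligases. Hepatocytes, the main cell type of liver, secrete most plasma proteins, carry out the urea cycle, gluconeogenesis and bile acid synthesis, and clear drugs and peroxides, under the control of nuclear receptors and other transcription factors such as HNF4A.

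Each SSB was recorded as 1 nucleotide position on 1 strand, and each position was counted once. Liver replicate 1 held 446014 positions and liver replicate 2 held 651467, together 1097481 of the 5518789 SSB positions of all libraries (19.9%). The other libraries held between 225011 positions in PBMC replicate 1 and 1041983 in heart replicate 2. Levels are given as LPKM, the number of positions per kb of the feature and per 1000000 positions of the library. At this depth most genes held few positions, and intervals around shares and sums cover counting error only.

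Promoters of hepatocyte genes give an idea of the raw signal. Among 116 RefSeq promoters of 99 genes on 3 lists of hepatocyte genes (build GRCm38.p6, 250 bases before the start and 50 after it), 48 held a liver SSB. They held 68 liver positions against 161 in the other 10 libraries, so that 29.7% of their positions came from liver, against 20.5% in all 32851 promoters. The first share was summed over promoters, so a position where promoters overlap counts more than once. The second counted each position once. These 4 are shown because they held at least 3 liver positions and stand for an enzyme, a transporter and 2 transcription factors, and they were picked after their values were seen. Capitals mark each nucleotide that carried an SSB in a liver library on either strand, and all are written 5′ to 3′ along the gene.

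Cyp8b1 (sterol 12-alpha-hydroxylase of bile acid synthesis, chr9:121916256-121916555, minus strand): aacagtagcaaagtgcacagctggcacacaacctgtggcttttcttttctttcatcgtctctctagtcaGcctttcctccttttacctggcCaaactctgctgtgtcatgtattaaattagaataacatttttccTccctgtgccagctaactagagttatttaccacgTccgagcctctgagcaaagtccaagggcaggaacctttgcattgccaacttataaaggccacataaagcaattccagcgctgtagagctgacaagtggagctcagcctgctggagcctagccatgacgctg
Abcc2 (export pump for conjugated bilirubin, chr19:43782058-43782357, plus strand): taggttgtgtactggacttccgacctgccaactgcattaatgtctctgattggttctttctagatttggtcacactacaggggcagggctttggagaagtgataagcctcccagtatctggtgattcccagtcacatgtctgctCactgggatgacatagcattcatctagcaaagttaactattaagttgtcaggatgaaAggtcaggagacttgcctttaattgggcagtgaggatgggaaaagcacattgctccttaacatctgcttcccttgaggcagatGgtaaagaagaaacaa
Onecut1 (transcription factor HNF6, chr9:74861671-74861970, plus strand): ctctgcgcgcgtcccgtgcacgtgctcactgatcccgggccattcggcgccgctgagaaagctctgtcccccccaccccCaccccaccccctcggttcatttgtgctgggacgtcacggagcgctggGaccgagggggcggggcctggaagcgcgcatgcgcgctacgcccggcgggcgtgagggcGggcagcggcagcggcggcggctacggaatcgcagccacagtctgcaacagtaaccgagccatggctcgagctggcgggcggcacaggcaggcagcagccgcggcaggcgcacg
Foxa3 (forkhead factor HNF3G, chr7:19023490-19023789, minus strand): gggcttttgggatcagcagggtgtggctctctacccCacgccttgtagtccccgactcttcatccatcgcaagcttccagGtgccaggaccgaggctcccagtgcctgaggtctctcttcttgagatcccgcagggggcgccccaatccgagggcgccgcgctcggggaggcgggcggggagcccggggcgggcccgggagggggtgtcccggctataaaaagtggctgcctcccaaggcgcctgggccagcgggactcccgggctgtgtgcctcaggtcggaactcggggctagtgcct

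The Cyp8b1 promoter carried 2 positions in each liver library and 4 in the 10 others together. The Onecut1 promoter carried 2 and 1 in liver and none in the others, and that of Abcc2 carried 3, all in liver replicate 1, and none in the others. The Foxa3 promoter carried 1 and 2 in liver and 2 in the others, and the 2 positions of liver replicate 2 lay at the same nucleotide on opposite strands. Such counts are small, and no promoter was tested alone.

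The first question was whether genes that serve hepatocytes carried a different SSB level in liver. The 45 plasma protein genes, the 66 genes of hepatocyte metabolism and transport and the 22 liver transcription factor genes were each at a higher summed level in both liver libraries than in any of the 10 others. Per library the metabolism list reached 0.547 and 0.553 LPKM in liver, against a lowest of 0.464, a median of 0.471 and a highest of 0.508 in the others. The plasma protein list reached 0.614 and 0.669 LPKM in liver against 0.473, 0.538 and 0.614 in the others, so liver replicate 1 was barely above bone marrow replicate 2. The transcription factor list reached 0.676 and 0.714 LPKM in liver against 0.583, 0.625 and 0.669.

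Over the 3 lists together the level was 0.603 LPKM in liver replicate 1 (1551 positions, exact 95% Poisson interval 0.573 to 0.633) and 0.627 in liver replicate 2 (2358 positions, 0.602 to 0.653). The 10 others ranged from 0.521 to 0.567 with a median of 0.540. The liver mean of 0.615 ± 0.017 (SD, n = 2) was 1.14 times the mean of the others, 0.541 ± 0.014 (SD, n = 10). The means of the other tissues were close to each other, from 0.534 LPKM in heart to 0.550 in brain. All protein-coding genes together gave 0.509 and 0.512 LPKM in liver against 0.495 to 0.534 in the others, a ratio of 1. These are descriptions of summed levels, and no test was run over a list. The lists were chosen with earlier results of these data known, and their pool was added after the files were seen.

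**Figure D1:**
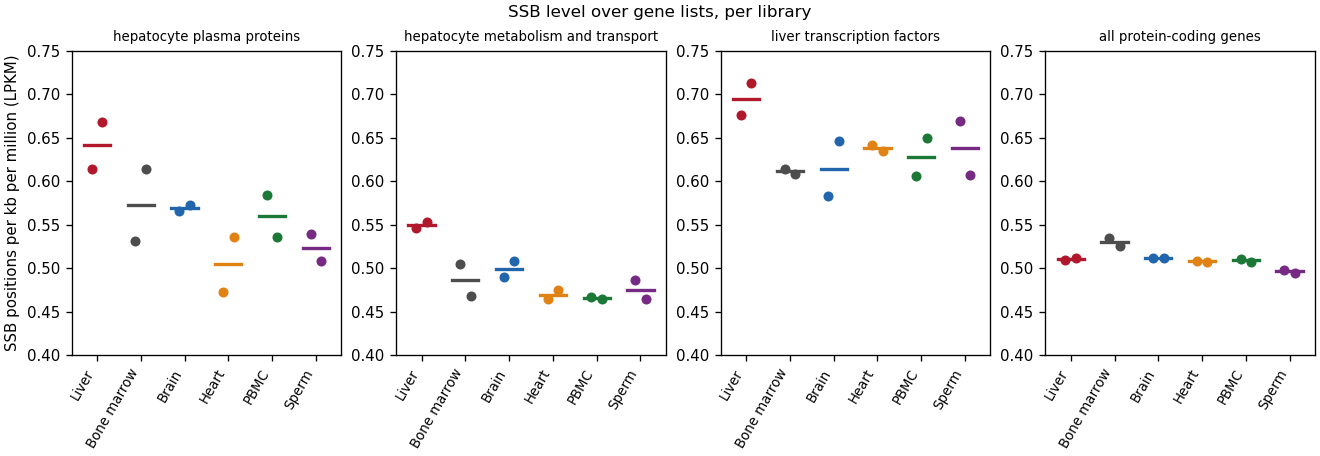
SSB level in LPKM (vertical axis, cut to 0.4 to 0.75) of each library for the 3 hepatocyte gene lists and for all protein-coding genes, with 2 points per tissue (replicates 1 and 2) and a line at their mean. The 2 liver points lie above all 10 others in each of the 3 lists, by the least in the plasma protein list, and within the range of the others for all protein-coding genes.

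Marker genes of other cells did not show this. Markers of liver non-parenchymal cells (Kupffer, endothelial, stellate and bile duct cells) were at 0.445 and 0.435 LPKM in liver against 0.420 to 0.508 in the others. Brain neuron markers were at 0.630 and 0.622 against 0.573 to 0.676, and heart muscle markers at 0.678 and 0.639 against 0.623 to 0.695. Blood and immune markers, at 0.681 and 0.698 in liver, ranged from 0.631 to 0.942 in the others, with bone marrow replicate 1 highest. Sperm and spermatid markers were at 0.334 and 0.381 against 0.328 to 0.444. In their own tissue, the neuron markers were 1.07 times, the heart markers 1.03 times, the blood markers 1.12 times and the sperm markers 0.869 times the mean of the remaining libraries, and each overlapped them.

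Across genes, liver was compared with the mean of the other 5 tissues by edgeR's quasi-likelihood test on positions per gene span. Of 38486 genes tested, none passed a Benjamini-Hochberg adjusted p of 0.05 (0% called in either direction). At an unadjusted p under 0.05, liver was higher in 1476 genes (3.84%) and lower in 359 (0.933%). With the 10 other libraries taken as 1 group the split was 811 higher (2.11%) and 725 lower (1.88%), so the surplus of higher genes depended on how the other tissues were combined. The median log2 fold change over all genes moved in the same way, from 0.15 to 0.020. Among the 7072 genes with a mean of at least 10 positions per library the shares were 4.58% higher and 1.34% lower, and among the 943 with at least 50 they were 6.36% and 1.17%. The other tools called 0 genes (DESeq2, 78 higher and 68 lower at an unadjusted p under 0.05) and 13 genes (limma on log2(LPKM + 1), 12 higher and 1 lower), and the 13 held at most 3 positions in any library.

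The 132 hepatocyte genes that could be tested lay to the higher side of all genes. Of these, 99 (75.0%) had a positive log2 fold change, compared with 61.1% of all genes. At an unadjusted p under 0.05 (edgeR), 19 (14.4%) were higher and 1 lower, compared with 3.84% and 0.933% of all genes. The median log2 fold change of the 132 was 0.38, against 0.15 over all genes. With the other libraries as 1 group, 96 genes were positive, and 15 (11.4%) were higher and 2 lower, compared with 2.11% and 1.88% of all genes. The median was then 0.28 against 0.020. Both liver libraries were above all 10 others in 5 of the 132 (3.79%), compared with 518 of 38486 genes (1.35%), and below all others in none, compared with 174 genes (0.452%). The 19 higher genes became 10 without liver replicate 2, 4 with DESeq2 and 5 with limma. None of the 132 passed the adjusted threshold, and members with few positions had folds with wide errors.

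At an unadjusted p under 0.05 (edgeR), 3.84% of all genes were higher and 0.933% lower. By list, 35 of 45 plasma protein genes had a positive log2 fold change (median 0.42). At that p, 5 of these 45 were higher (Apoa2, Apoc3, Serpina3k, Itih4 and Hrg) and 1 lower. The lower one was F12, the coagulation factor that starts the contact pathway, at 0.507 and 0.173 LPKM in liver against 0.301, 0.960 and 1.92 in the others from 2 and 1 positions. Apoc3, an inhibitor of triglyceride clearance, was at 5.20 and 2.37 LPKM against 0 to 3.44 from 6 and 4 positions. In the metabolism list 47 of 66 were positive (median 0.34), with 9 higher and 0 lower. Among the 9 were Cpt1a, the carnitine transferase that admits fatty acids to mitochondria (0.955 and 0.920 LPKM against 0.396, 0.658 and 0.928), Abcb4, the phospholipid pump of bile (0.683 and 0.702 against 0.274, 0.365 and 0.759), and Uox, the urate oxidase of peroxisomes (0.784 and 0.939 against 0.370, 0.568 and 0.806). Each of these 3 overlapped the other libraries. Of the transcription factors 17 of 21 were positive (median 0.38), with 5 higher (Hnf4a, Nr1i2, Nr5a2, Onecut1 and Creb3l3) and 0 lower. The counts of higher genes rested in part on the tool and on liver replicate 2. They were 0, 1 and 3 for the 3 lists with DESeq2, 0, 3 and 2 with limma, and 2, 6 and 2 without liver replicate 2. For plasma proteins the count was 2 with the other libraries as 1 group and 1 without sperm. The medians of the other 5 lists were -0.05 for non-parenchymal cells, 0.04 for neurons, -0.02 for heart muscle, 0.10 for blood and 0.03 for sperm, with 0 members higher at that p in each. The sperm list had 1 member lower. These lists had 20 to 24 genes tested, too few to tell 0 members from the 3.84% of all genes.

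**Figure D2:**
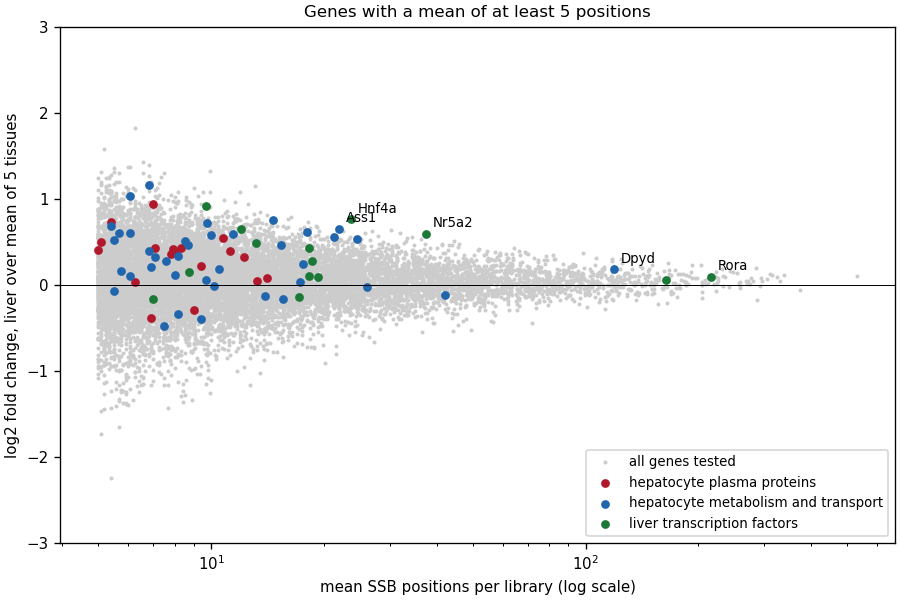
Log2 fold change of liver over the mean of the 5 other tissues (vertical axis) against the mean number of SSB positions per library (horizontal axis, log scale) for genes with a mean of at least 5 positions, with the 3 hepatocyte lists in colour over all genes in grey. Most coloured points lie above 0, and the spread of all genes narrows as positions increase. Hnf4a and Nr5a2 lie near the upper edge, whereas Dpyd and Rora, with the most positions of their lists, lie near 0.

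The 10 genes of smallest unadjusted p were all higher in liver, and none passed adjustment (adjusted p of 0.455 for the first 3 and 0.974 for the others, edgeR). This contrast gave more higher than lower genes in general (1476 and 359 at an unadjusted p under 0.05, edgeR). With the other libraries as 1 group the numbers were 811 and 725. Of the 10 genes, Hnf4a and Nr5a2 were on a list. Hnf4a, the nuclear receptor that governs much of the hepatocyte programme (chr2:163506811-163572907), held 30 and 51 positions in liver. This was 1.02 and 1.18 LPKM, against a lowest of 0.471, a median of 0.642 and a highest of 1.06 in the others (log2 fold change 0.76, SE 0.21). Bone marrow replicate 1 lay between the 2 liver libraries, so the groups overlapped. Its antisense gene Hnf4aos (0.608 and 1.25 LPKM against 0.185 to 0.819) overlaps it and was counted without regard to strand, so it is not a separate result.

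Nr5a2, the nuclear receptor LRH-1 that controls bile acid genes (chr1:136842562-136960448), was at 0.818 and 0.990 LPKM in liver against 0.430, 0.607 and 0.899 (log2 fold change 0.60, SE 0.17), with 2 other libraries above the lower liver value. Habp2, a serine protease of plasma (chr19:56287109-56320820), had the smallest p. It was at 1.20 and 1.14 LPKM in liver against 0.158, 0.578 and 0.665 in the others (log2 fold change 1.32, SE 0.31, unadjusted p = 2.01e-05). Its groups did not overlap. Mdh2, the malate dehydrogenase of mitochondria, was likewise apart, at 1.53 and 1.44 LPKM against 0 to 0.615, from 8 and 11 liver positions.

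Cat, the catalase that removes hydrogen peroxide, was at 1.15 and 1.52 LPKM in liver against 0.341, 0.566 and 1.15, with PBMC replicate 2 just above the lower liver library. Inhbc, an activin subunit gene of liver, was at 1.42 and 0.863 LPKM against 0 to 0.505, from 9 and 8 liver positions. Abcg5, part of the sterol exporter of the bile canaliculus, was at 1.53 and 0.742 against 0.144 to 0.780. Rpap3, a cofactor of RNA polymerase assembly with no particular role in liver, was at 1.24 and 0.649 against 0.138 to 0.694. Gm52870, a predicted gene, was at 1.48 and 1.07 against a lowest of 0.265 and a median of 0.711. Inhbc, Habp2, Mdh2 and Gm52870 were apart from all other libraries, and the remaining 6 overlapped them. The 10 genes were picked by their p in the same libraries, so lying apart is no separate support. Of all 38486 genes, 518 (1.35%) were above all other libraries.

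Of the 5 plasma protein genes with the most positions, none reached an unadjusted p of 0.05. Apob, the core of very low density lipoprotein, was at 0.743 and 0.861 LPKM in liver against a median of 0.801 in the others, and Plg, the plasmin precursor, at 0.550 and 0.791 against 0.654. C3, the central complement protein, was at 1.02 and 1.46 against 0.911, with bone marrow replicate 2 highest at 2.10. C8a was at 0.516 and 0.505 against 0.442. Cp, the copper oxidase ceruloplasmin, was at 0.552 and 0.552 against 0.374 (log2 fold change 0.54, SE 0.32, unadjusted p = 0.0923). F2, the prothrombin gene, was the only plasma protein gene above all other libraries (1 of 45, 2.22%, compared with 1.35% of all genes). It was at 0.745 and 0.638 against 0.136 to 0.634 from 8 and 10 positions.

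Of the 5 metabolism genes with the most positions, Ass1, the argininosuccinate synthase of the urea cycle (chr2:31470270-31520670), stood apart. It held 32 and 38 positions in liver, or 1.42 and 1.16 LPKM, against 0.454, 0.971 and 1.06 in the others (log2 fold change 0.65, SE 0.22, unadjusted p = 0.00283). Dpys, a dihydropyrimidinase of pyrimidine breakdown, was at 0.705 and 0.793 against a median of 0.519, with 1 library above the lower liver value (log2 fold change 0.53, SE 0.21). Cps1, the entry enzyme of the urea cycle, was at 0.453 and 0.508 LPKM against a median of 0.566. Lipc, the hepatic lipase gene, was at 0.451 and 0.608 against 0.572, and Dpyd, a gene of over 500 kb, at 0.330 and 0.319 against 0.296. Mat1a, the methionine adenosyltransferase of adult liver, was the other metabolism gene apart from all libraries, at 1.50 and 1.03 against 0, 0.664 and 0.924 from 13 positions in each liver library. Ass1 and Mat1a were thus 2 of 66 genes above all other libraries (3.03%, compared with 1.35% of all genes).

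Of the transcription factor genes with the most positions, Rora (0.662 and 0.650 LPKM in liver against a median of 0.634), Esrrg (0.551 and 0.602 against 0.564) and Ppara (0.748 and 0.512 against 0.601) lay within the other tissues. Onecut1, whose promoter is printed above, was at 1.21 and 1.22 LPKM over its span against 0.200, 0.690 and 0.944 in the others (log2 fold change 0.92, SE 0.31, unadjusted p = 0.0034). Nr1i2, the xenobiotic receptor PXR, was at 0.723 and 0.825 against 0.232, 0.531 and 0.703. Both were apart from all other libraries (2 of 21 tested, 9.52%, compared with 1.35% of all genes), but the adjusted p of each was 0.974 (edgeR).

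Among the members with the most positions of the other 5 lists, liver and the other tissues overlapped in each one named here. Log2 fold changes ran from -0.10 (Stab1) to 0.30 (Hgf) among the non-parenchymal genes Reln, Stab2, Cftr, Stab1 and Hgf. They ran from -0.06 (Map2) to 0.06 (Syt1) among the neuron genes Rbfox3, Grin2b, Syt1, Map2 and Camk2a, and from -0.01 (Ttn) to 0.09 (Ldb3) among the heart genes Cacna1c, Ryr2, Ttn and Ldb3. Among the blood genes Runx1, Bcl11b, Ikzf1, Ptprc and Tcf7 they ran from -0.24 (Ikzf1) to 0.04 (Runx1). Spata18 had the largest change of the sperm genes Crem, Odf2, Zpbp, Adam2 and Spata18, at 0.53 with an SE of 0.39, and Zpbp the lowest, at -0.21.

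The second question was how far the difference reached from hepatocyte genes. In the 5 kb next to them on either side, liver was at 0.722 and 0.707 LPKM against 0.463, 0.553 and 0.674 in the others, 1.28 times their mean. Other genes were not left out of these zones. A zone can therefore hold the body of another listed gene, and a position near more than 1 listed gene counts more than once. By list, both liver libraries were above all others in this zone for plasma proteins and for metabolism (each 1.31 times the mean of the others), but not for transcription factors (1.17 times), where bone marrow replicate 1 was highest. Beyond 5 kb the liver libraries fell within the others, with ratios of 1.02 at 5 to 10 kb, 1.04 at 10 to 25 kb, 1.05 at 25 to 50 kb and 1.04 at 50 to 100 kb. Around all protein-coding genes the ratios were 1.01 in the nearest 5 kb and 1 to 1.01 farther out.

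**Figure D3:**
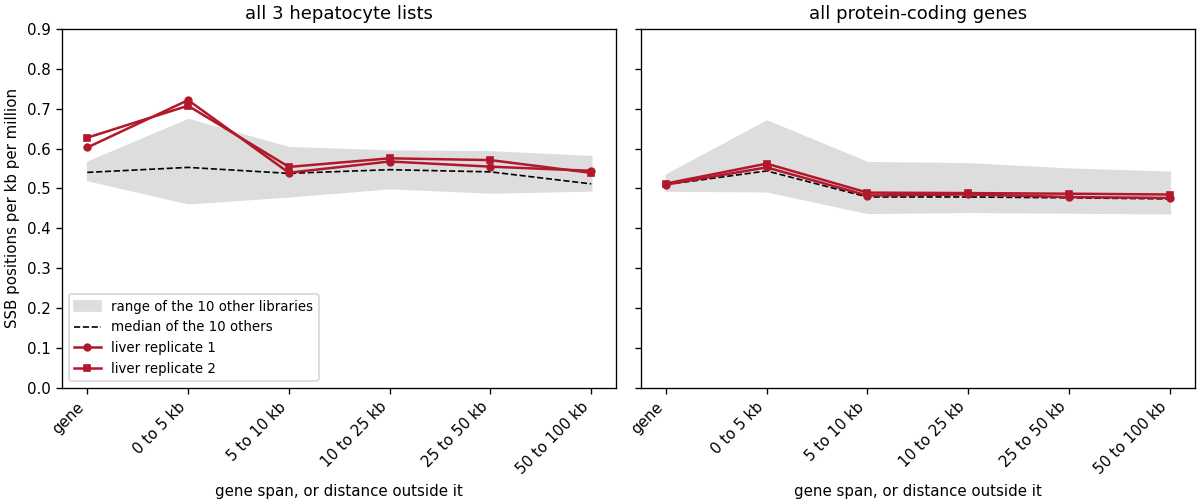
SSB level in LPKM (vertical axis) over gene spans and in zones of increasing distance outside them (horizontal axis), for the 3 hepatocyte lists together and for all protein-coding genes. Other genes were not left out of the zones. The liver libraries (red) are above the range of the 10 others (grey) over the spans and the nearest 5 kb of the hepatocyte genes only, and close to the median (dashed) everywhere for all genes.

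By position along the 99 hepatocyte genes of known strand, the last 1 kb before the gene was at 0.996 and 1.05 LPKM in liver (44 and 68 positions) against 0.396, 0.753 and 0.870 in the others, 1.42 times their mean. The first 1 kb inside the gene was at 1.18 and 1.21 against 0.458 to 1.24, with overlap. The first 1 kb after the 3′ end was at 0.861 and 0.760 (38 and 49 positions) against 0.257, 0.517 and 0.749, 1.59 times their mean. For all 17492 protein-coding genes of known strand the same ratios were 1.07 before the 5′ end and 0.998 after the 3′ end. On both flanks the 2 liver libraries were above all others for hepatocyte genes, and on neither for all genes.

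Abasic (AP) sites, lost bases mapped from the same samples, served as a second readout. Over the 3 lists together AP levels were 0.579 and 0.599 LPKM in liver against 0.549 to 0.587 in the others, 1.04 times their mean, with overlap. By list the AP ratio was 1.09 for plasma proteins, 1.01 for metabolism and 1.05 for transcription factors, each with overlap. In the nearest 5 kb of the 3 lists together the AP ratio was 0.922. The heart muscle list was lower in AP level in both liver libraries than in all others, at 0.893 times their mean. By edgeR on AP positions, 68 of the 132 genes had a positive log2 fold change, compared with 8819 of 20397 protein-coding genes. The median of the 132 was 0.06, against -0.06 over all genes, a difference of 0.13 (0.23 for SSBs). For the plasma protein list that difference was 0.22 (0.27 for SSBs). At an unadjusted p under 0.05, 2 of the 132 were higher and 7 lower (1.79% and 2.61% of 41374 genes), and none passed adjustment (0% called). Of the genes named above, Hnf4a had an AP log2 fold change of -0.09, Nr5a2 of 0.14, Ass1 of -0.76 and Onecut1 of 0.11. The AP liver libraries were the shallowest of their assay, and the 2 assays were not compared by a test. In the other features AP sites also gave 0 calls (0%), with 3.28% of windows higher and 2.51% lower at an unadjusted p under 0.05, 0.564% and 2.5% of 5′ windows, and 0.484% and 2.33% of 3′ windows.

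In 100 kb windows, 1 of 25925 windows passed an adjusted p of 0.05, a share of 0.00386%, and it was higher in liver. At an unadjusted p under 0.05, 812 windows were higher (3.13%) and 550 lower (2.12%), with 495 (1.91%) and 545 (2.1%) when the other libraries were 1 group. The window that passed, chr17:39800001-39900000, holds the ribosomal RNA related genes Rn18s-rs5 and AY036118, sequences with many near-identical copies in the genome, so its counts are uncertain. It held 379 and 537 liver positions, or 8.50 and 8.24 LPKM, against 3.86, 6.12 and 11.7 in the others (log2 fold change 0.41, SE 0.07, adjusted p = 0.000276, edgeR). Both bone marrow libraries were above liver, at 10.6 and 11.7, so the window was not highest in liver. The call was lost when either liver library or PBMC replicate 2 was left out (adjusted p = 0.378, 0.257 and 0.0638), without sperm (0.490), with the other libraries as 1 group, with DESeq2 and with limma.

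The other windows of smallest p did not pass. The window chr2:163500001-163600000, which holds the whole of Hnf4a, was at 0.987 and 1.09 LPKM in liver against 0.425, 0.610 and 1.05 (log2 fold change 0.69, SE 0.17), with bone marrow replicate 1 above the lower liver value. The window chr6:94200001-94300000 in Magi1, a scaffold protein of cell junctions, was at 0.785 and 0.952 against 0.381, 0.566 and 0.711, apart from the others (log2 fold change 0.70, SE 0.19). A negative log2 fold change was found in chr15:25300001-25400000, which holds Basp1 (0.493 and 0.215 against 0.424, 0.643 and 0.844). There liver replicate 1 lay above bone marrow replicate 2, so the groups overlapped. Another was found in chr3:114100001-114200000 within the collagen gene Col11a1 (0.0897 and 0.123 against 0.133, 0.291 and 0.589), where both liver libraries lay below all others. The adjusted p of these 4 was 0.615 (edgeR). They were picked by their p, so lying apart is no separate support.

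The log2 fold change was positive in 103 of the 127 windows that held the midpoint of a hepatocyte gene (81.1%, compared with 53.0% of all windows). At an unadjusted p under 0.05, 14 of them were higher (11.02%, compared with 3.13% of all windows) and 0 lower (compared with 2.12%), and 2 were above all other libraries (264 of all windows, 1.02%, with 0.683% below all others). Their median was 0.13, against 0.021 over all windows, and 0.11 against -0.01 with the other libraries as 1 group. These windows share positions with the gene spans and are no independent evidence.

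The third question was whether the general shape of the landscape differed. In 9 single values per library liver overlapped the other tissues each time, and no exact permutation test over the 66 ways to choose 2 of 12 libraries passed (two-sided p of 0.424 to 1, adjusted p = 1, smallest possible p = 0.0152). A lone value at that smallest p could not have passed adjustment over the 9, so the values are read by their overlap. Gene spans held 61.1% of positions in liver replicate 1 (95% Wilson interval 60.9 to 61.2) and 61.4% in replicate 2 (61.3 to 61.5), against 59.8 to 63.5% in the others. Protein-coding genes over 500 kb held 7.27 and 7.14% (others 6.27 to 7.99%). Windows free of genes held 8.78 and 8.62% (7.26 to 9.88%) and windows with at least 5 gene starts held 4.65 and 4.77% (3.98 to 5.90%). Chromosome X held 1.77 and 1.76% (1.32 to 1.83%), and on none of the 21 chromosomes did liver lie apart from the others.

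The density of SSBs rose toward gene starts in liver. Within 1 kb of the 5′ end of protein-coding genes it was 2.10 and 2.15 times that 50 to 100 kb away, close to heart (2.20 and 2.14) and brain (2.06 and 1.96), below bone marrow (2.63 and 2.38) and above PBMCs (1.63 and 1.65) and sperm (1.71 and 1.68). In bins of 200 bp the highest in liver lay just before the start, at 2.80 and 3.01 times the distant level. At 3′ ends the ratio was 1.41 and 1.38, against 1.37 to 1.42, and the highest bin in both liver libraries was centred at -900 bp from the end (1.67 and 1.65). In gene interiors 54.8 and 54.6% of positions were recorded on the strand that the annotation gives for the gene, against 52.6 to 56.7%. The sources used here do not state whether the recorded strand is the broken one or its complement, and in the latter case these shares are those of the opposite strand. Positions with a count above 1 made up 0.256 and 0.355% in liver, against 0.140 to 1.23%.

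**Figure D4:**
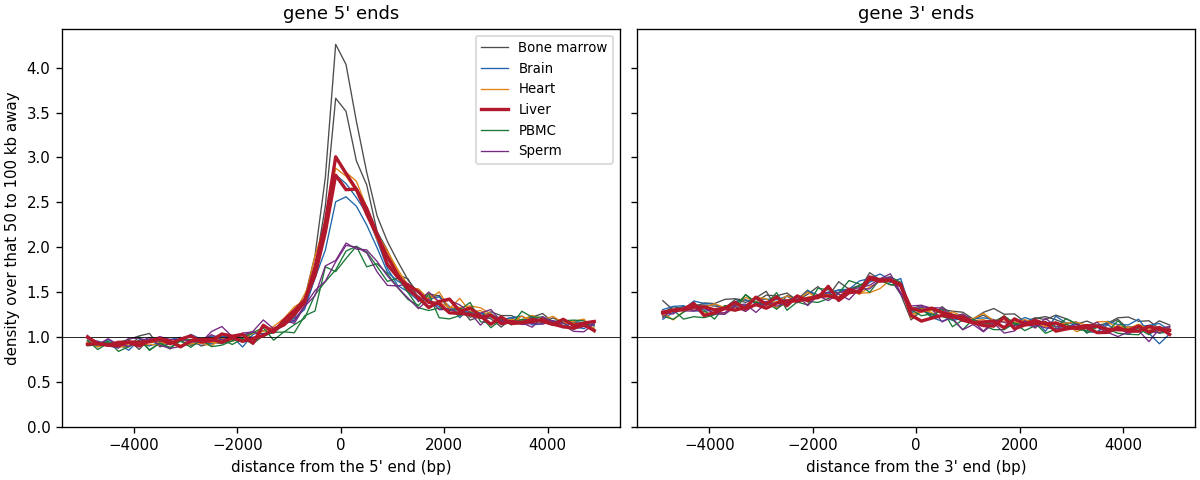
SSB density in 200 bp bins divided by the density 50 to 100 kb away (vertical axis) against the distance from the 5′ end (left) and the 3′ end (right) of protein-coding genes, with negative distances upstream and 1 line per library. The liver lines (thick) peak near 3 at the 5′ end, together with heart and brain, between bone marrow above and PBMCs and sperm below, and the lines run close together at the 3′ end, with liver peaks of 1.67 and 1.65.

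**Figure D5:**
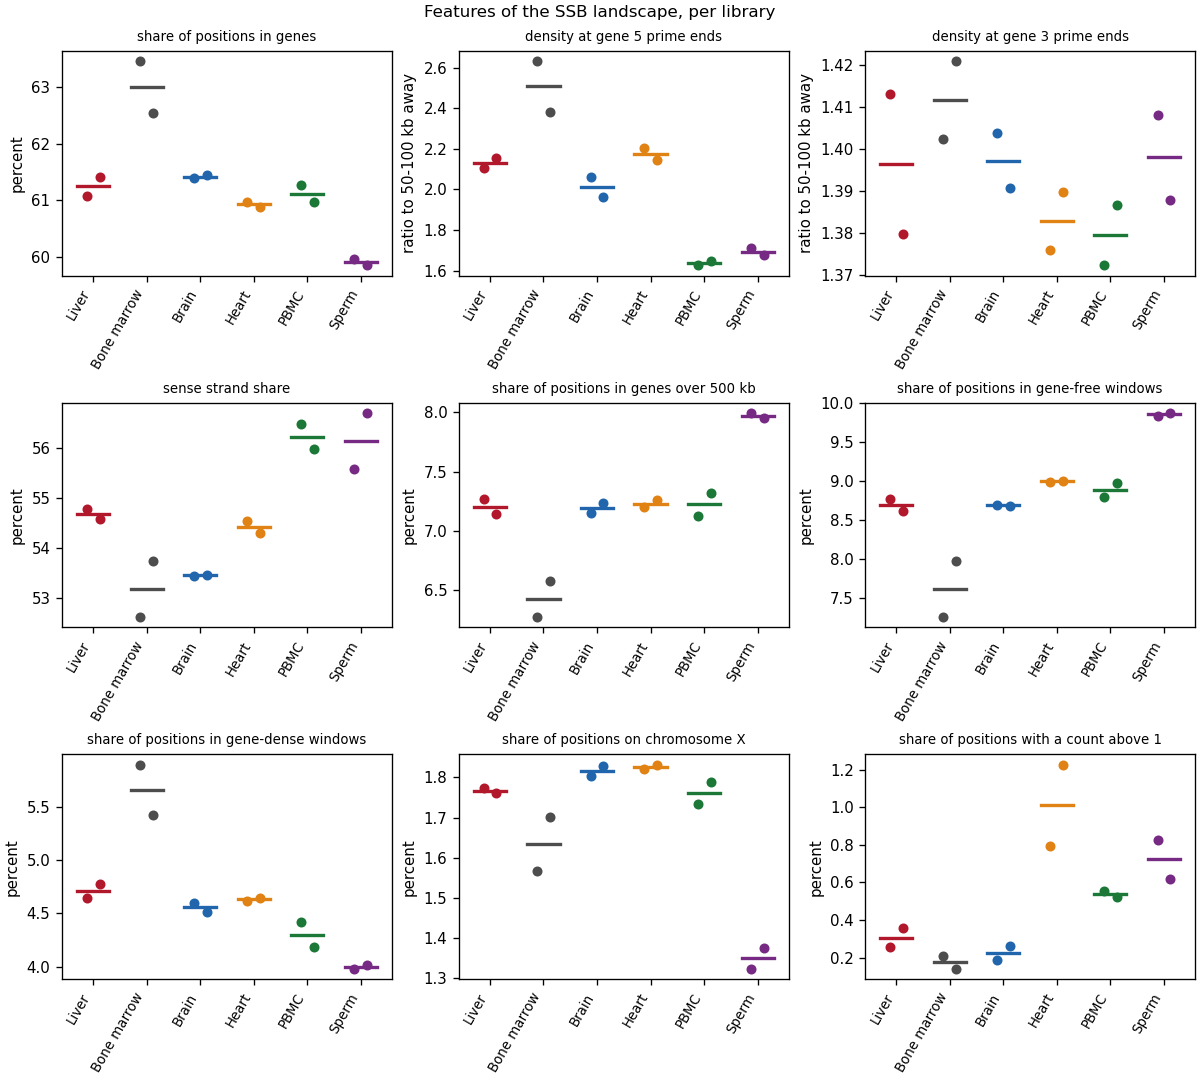
The 9 features of the SSB landscape per library, as percent of positions or as a ratio to the density 50 to 100 kb away (vertical axes, not starting at 0), with 2 points per tissue and a line at their mean. The liver points overlap those of the other tissues in every panel.

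By gene length, the LPKM of liver fell from 0.867 and 0.869 in protein-coding genes of up to 10 kb to 0.381 and 0.374 in those over 500 kb. The ratio of liver to the mean of the others stayed between 0.989 and 1.03 in all 6 length classes. Windows with no gene start were at 0.306 and 0.302 LPKM, and those with 5 or more at 0.632 and 0.649. In each of these classes liver lay within the other tissues.

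At single gene ends no window passed adjustment. Of 15579 5′ windows (0% called) 870 were higher (5.58%) and 29 lower (0.186%) at an unadjusted p under 0.05. Of 13939 3′ windows (0% called) 575 were higher (4.13%) and 4 lower (0.0287%). With the other libraries as 1 group the counts were 331 and 166 at 5′ ends and 299 and 50 at 3′ ends. Both liver libraries were above all others in 1.93% of 5′ windows and 1.48% of 3′ windows and below all others in 0.0257% and 0.0143%. Most windows held 0 or 1 position per library, and here the median over all windows was itself well above 0 (0.59 at 5′ ends and 0.75 at 3′ ends on the log2 scale). Without liver replicate 2 the median was 0.51 at 5′ ends and -0.16 at 3′ ends, and without liver replicate 1 it was 0.41 and 0.79. With the other libraries as 1 group the median was 0.09 at 5′ ends and 0.25 at 3′ ends. The sign at 3′ ends changed without liver replicate 2, which was also the deeper liver library. Replicate and depth cannot be told apart here. Single genes were thus poorly measured here.

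The 5 5′ windows of smallest p were those of Mal, Slc9a3r1, B4galnt2, Fnbp4 and Gin1. Slc9a3r1, the scaffold protein NHERF1 of microvilli and bile canaliculi, held 3 and 12 positions in liver within 1 kb of its start against 0 to 4 in the others. Fnbp4 held 3 and 5 against 0 to 2, and Gin1 held 7 and 5 against 0 to 4. Mal (8 and 1) and B4galnt2 (0 and 8) rested on 1 liver library each. At 3′ ends the smallest p were found for Cd209g (1 and 9 positions against 0 to 2), Nanos3 (7 and 4 against 0 to 3), Ferd3l (6 and 3 against 0 to 2), Cryl1 (3 and 6 against 0 to 1) and Ifitm5 (5 and 5 against 0 to 4). Cryl1, the crystallin-like L-gulonate dehydrogenase of liver and kidney, Fnbp4 and Ifitm5 were apart from the others in LPKM. As all these windows were picked by their p, this is no separate support. The adjusted p of the 5 5′ windows was 0.776, and those of the 3′ windows were 0.776 to 0.819 (edgeR).

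In the promoter sequences the bases at liver SSBs differed from the composition of the promoters. Read along the recorded strand, the nucleotide was C in 39.8 and 39.7% and G in 37.6 and 36.8% of 4890 and 7412 liver positions, and A in 5.15 and 5.17%. The promoters themselves held 26.7% C, 26.7% G and 23.2% A. If that strand is the complement of the broken one, C and G, A and T, and before and after change places in these values. The base before it was C in 57.3 and 57.4% of liver positions, against 47.1 to 57.1% in the others, and A in 3.75 and 3.81%, against 3.96 to 5.81%. Both values lay just outside the other 10 libraries, and no other base did so from 2 nucleotides before to 1 after. The margins are small beside the counting error of 4881 and 7393 liver positions, so no trait of liver is read from them. The recorded nucleotide was C in 35.7 to 41.9% in the others, so the excess of C over the promoters was seen in all tissues. This comparison was chosen after the files were seen and has no test.

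The 2 liver libraries shared 911 nucleotides on the same strand, 0.204% of the smaller library. Per 1000000000 pairs of positions this was 3.14, against 2.21 to 3.10 between a liver library and one of another tissue, with bone marrow nearest, and 2.42 to 4.16 within the other tissues. After thinning every library to 225011 positions, the Spearman correlation of window counts between the liver libraries was 0.746 over 25780 windows. It was 0.749 to 0.761 with bone marrow, 0.740 to 0.743 with brain and 0.703 to 0.709 with sperm. These correlations are a description across windows, which share gene density and mappability, and by them a liver library was no closer to the other liver library than to bone marrow.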

How the data were processed

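SSBs had been mapped by SSiNGLe and AP sites by SSiNGLe-AP, methods that mark the lesion in purified DNA and sequence from it. Per the labels, the deposited files list, for each library, the coordinate and strand of every break or AP site and the authors' count at it, and the submitters' processing notes name mm10 and GRCm38 (and RSEM 1.2.28, for RNA). Aligner and filters are not given in the sources used here. The 12 AP libraries held 460719 to 963258 positions. RNA libraries were not used here.

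Positions were counted once over RefSeq spans of GRCm38.p6 (49943 genes, introns included), 27236 windows of 100 kb and 1 kb on each side of gene ends. Strand was known for 17492 of 21887 protein-coding genes (79.9%), and only those entered oriented analyses. The sense share used the interior of 8035 genes that overlap no gene of the other or an unknown strand. Features with a position in at least 20% of libraries were tested with edgeR 4.0.16 (quasi-likelihood, TMM, tissue as the only term, liver minus the mean of the other 5) in R 4.3.3, with Benjamini-Hochberg adjustment. SE is the fold change divided by the square root of F. The test was checked on simulated data. DESeq2 1.42.0 and limma 3.58.1 (pseudocount 1) were alternatives. Other values used Python 3.11.15.

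Members, gene lists and tests were chosen with earlier results of these data known. Named genes were the 10 of smallest p, as none passed, and of each list the 5 with the most positions. One gene that this rule names is not reported here. Of windows and gene ends the 5 of smallest p were named. F2, Mat1a, Onecut1 and Nr1i2 were named after their values were seen, for lying above all other libraries. F12, Apoc3, Cpt1a, Abcb4, Uox and other list members outside these rules were also named after their values were seen, for an unadjusted p under 0.05 (edgeR). The pool of the 3 hepatocyte lists, zones, promoters, base context, shared nucleotides and thinned correlations were also added after the files were seen.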

Additional observations from a re-analysis of the deposited data

How the results depend on the processing

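Depth limits these results: most genes hold few positions, and with 2 liver libraries an exact permutation p cannot go below 0.0152. Genes called went from 0 to 13 with limma on log2(LPKM + 1), and stayed at 0 in the other 24 alternatives, including those that left out 1 library. Windows called went from 1 to 0 with DESeq2, with limma, with the other libraries as 1 group and without sperm, and ranged from 0 to 1 when 1 library was left out. Deviations by replicate number correlated at -0.0146 to 0.0109 over 15 pairs of tissues. With so few positions per feature, this cannot tell whether a replicate number marks the same animal. With the replicate number as a block, genes called stayed at 0 and windows at 1, and 0 windows were called at either gene end. In that fit 1223 genes were higher and 325 lower at an unadjusted p under 0.05 (edgeR). The cause of these moves was not tested.

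The difference of liver from the others changed sign in single values that never passed a test. The share in genes went from -0.026 to 0.41 percentage points without bone marrow, the 3′ density fell to -0.012 with 500 bp and -0.0087 with 2 kb on each side, and the sense share became 0.068 over all protein-coding genes. Without sperm the sense share became 0.36, the share in genes over 500 kb 0.18, that in gene-free windows 0.15 and that in gene-dense windows -0.077. With 1 library left out, the difference ranged from -0.19 to 0.22 for genes, -0.014 to 0.019 for the 3′ density, -0.23 to 0.22 for the sense share, -0.11 to 0.081 for genes over 500 kb and -0.29 to 0.0033 for gene-free windows. The 5′ window of B4galnt2 ranged from a log2 fold change of -1.15 (without liver replicate 2) to 4.32.

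The ratio of liver to the others over the 3 hepatocyte lists together was 1.14 and stayed between 1.11 and 1.19 in 18 alternatives chosen after the files were seen. Without the 5 members with the most positions it was 1.18 for metabolism, 1.19 for transcription factors and 1.19 for the 3 together. With 1 library left out it ranged from 1.13 to 1.23 for plasma proteins, 1.14 to 1.16 for metabolism, 1.08 to 1.14 for transcription factors and 1.11 to 1.16 together. The median log2 fold change of the hepatocyte genes tested exceeded that of all genes by 0.08 to 0.29 over the 26 fits, with 4 to 24 members higher at an unadjusted p under 0.05.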
